A study of Mus musculus with 9 samples.

Results

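The genes described here are 9 effectors of apoptosis and necroptosis in the mouse retina: the death receptors Fas and Tnfrsf1a, the protease Casp8, the mitochondrial killers Bbc3, Pmaip1 and Bax, and the necroptosis genes Ripk1, Ripk3 and Mlkl. They were chosen by gene symbol from the 48587 names of the count table, leaving out spike-in controls, and each of the 9 symbols matched 1 name. Laser-induced retinal vein occlusion (RVO) blocks the large veins of the retina by laser after photosensitization with the dye eosin Y. RNA-seq counts were available for 9 samples, 3 in each of 3 groups, and each sample was a pool from 6 mice. In the RVO group all veins of 1 eye were lasered, and in the control group the fellow eye was lasered by the same scheme between the large vessels. Retinas of both groups were taken at d2, and the untreated group received no laser. The mice of each group were C57BL/6J mice of 12 weeks with no genetic alteration named. The lasered mice were given 200 mg/kg eosin Y, and the laser was set to 50 mW, a spot of 50 µm and 2.5 s. The untreated mice lacked the laser, and whether they received eosin Y is not given in the sources used here, so laser and dye cannot be told apart in comparisons with untreated eyes.

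Apoptosis starts either at the cell surface, where death receptors bound by their ligands assemble a complex that activates caspase-8, or at mitochondria, where BH3-only proteins release BAX and BAK to open the outer membrane. When caspase-8 is blocked, the same receptor complex can instead lead through RIPK1 and RIPK3 to phosphorylated MLKL, which ruptures the plasma membrane (necroptosis). Both forms of death are known from photoreceptors and ganglion cells of injured retina, and the necroptosis genes are also expressed by myeloid cells.

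The promoters are shown for 6 genes, because Fas, Tnfrsf1a and Ripk1 shared a motif, Ripk3 and Mlkl had at most 1 count in every untreated sample, and Bbc3 was the gene called between RVO and control eyes. Each sequence is the RefSeq window of GRCm38.p6 from 250 bases before to 50 bases after a transcription start, 5′ to 3′ on the strand of the gene, and capitals mark the motifs found. Fas lies at chr19:34290409-34290708 on the plus strand, Tnfrsf1a at chr6:125349473-125349772 (plus) and Ripk1, of which the downstream of 2 windows is shown, at chr13:34002624-34002923 (plus). Ripk3 lies at chr14:55788808-55789107 on the minus strand, Mlkl at chr8:111338156-111338455 (minus) and Bbc3, of which the most upstream of 3 windows is shown, at chr7:16309333-16309632 (plus).
Fas: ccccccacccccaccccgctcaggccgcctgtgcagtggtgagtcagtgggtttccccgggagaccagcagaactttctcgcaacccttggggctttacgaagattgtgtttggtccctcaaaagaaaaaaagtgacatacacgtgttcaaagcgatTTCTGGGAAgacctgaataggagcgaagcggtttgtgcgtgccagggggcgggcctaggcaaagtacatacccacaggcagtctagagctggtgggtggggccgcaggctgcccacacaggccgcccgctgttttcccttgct
Tnfrsf1a: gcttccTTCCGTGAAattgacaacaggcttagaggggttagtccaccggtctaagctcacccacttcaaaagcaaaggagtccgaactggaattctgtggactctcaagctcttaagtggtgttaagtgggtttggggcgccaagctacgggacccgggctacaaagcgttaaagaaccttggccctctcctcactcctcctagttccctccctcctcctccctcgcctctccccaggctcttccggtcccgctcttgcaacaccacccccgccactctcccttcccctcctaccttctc
Ripk1: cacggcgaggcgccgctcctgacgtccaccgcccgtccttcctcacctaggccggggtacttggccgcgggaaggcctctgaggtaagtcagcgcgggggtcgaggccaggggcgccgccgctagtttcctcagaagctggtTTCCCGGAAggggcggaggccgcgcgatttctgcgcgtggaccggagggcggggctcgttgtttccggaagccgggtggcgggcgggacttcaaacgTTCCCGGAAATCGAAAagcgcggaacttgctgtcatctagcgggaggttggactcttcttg
Ripk3: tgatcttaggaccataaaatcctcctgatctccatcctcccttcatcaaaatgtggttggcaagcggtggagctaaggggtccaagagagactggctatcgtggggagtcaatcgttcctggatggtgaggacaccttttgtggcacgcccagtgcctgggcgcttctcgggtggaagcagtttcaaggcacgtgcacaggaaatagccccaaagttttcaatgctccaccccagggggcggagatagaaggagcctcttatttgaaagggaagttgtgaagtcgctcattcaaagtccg
Mlkl: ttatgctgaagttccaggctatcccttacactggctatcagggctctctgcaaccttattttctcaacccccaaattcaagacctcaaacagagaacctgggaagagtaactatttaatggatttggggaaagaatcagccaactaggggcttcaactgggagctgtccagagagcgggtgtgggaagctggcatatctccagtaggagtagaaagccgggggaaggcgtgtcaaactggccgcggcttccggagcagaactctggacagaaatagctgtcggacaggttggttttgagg
Bbc3: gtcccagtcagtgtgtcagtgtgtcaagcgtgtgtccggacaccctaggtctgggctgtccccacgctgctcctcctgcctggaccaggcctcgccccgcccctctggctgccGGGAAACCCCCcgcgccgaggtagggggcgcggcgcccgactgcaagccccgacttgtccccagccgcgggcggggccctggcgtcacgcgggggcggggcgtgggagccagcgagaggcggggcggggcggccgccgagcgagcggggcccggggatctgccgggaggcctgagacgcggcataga

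Windows were given for 8 of the 9 genes, 11 windows in all, and 4 motifs were searched on both strands. The GAS motif of STAT factors, TTCNNNGAA, was found in 3 of the 11 windows, those of Fas, Tnfrsf1a and Ripk1, and 8.30% of the 32851 promoter windows hold it. The core of the interferon-response motif, a pair of GAAA with any 2 bases between, was found in the Ripk1 window, where it overlaps a GAS match, and 3.44% of all windows hold it. The NF-kB consensus was found in the Bbc3 window, and 8.46% of all windows hold it. The half-site of p53 was found in the window of Bax, and 8.36% of all windows hold it. No motif of these was found in the windows of Casp8, Ripk3 and Mlkl, which says only that these letters are absent there. These matches are descriptions of sequence, and binding was not measured.

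Total counts were 21022997 to 28993921 in the RVO samples, 18897218 to 23419497 in the control samples and 12377572 to 15245869 in the untreated samples, so genes of low expression were least precise in untreated eyes. Levels are given as CPM, the counts of a gene per 1e6 counts of its library, after TMM scaling, an edgeR step that sets the typical gene equal between samples. Genes were called at an adjusted p under 0.01 from edgeR's quasi-likelihood test. RVO sample 2 stood apart from the other RVO samples: summed lens markers (6 genes) were at 3642 CPM there against 128 and 302 CPM in the other RVO samples, and the 8 neutrophil markers summed to 34.5 CPM against 81.5 and 85.4 CPM. Among control samples, sample 1 had the most lens RNA, with 1967 CPM against 142 and 239 CPM. Untreated samples had 2.36 to 19.1 CPM, so lens markers were higher in every lasered sample, and of the 5 tested all were called higher in control and 3 in RVO against untreated eyes. The 6 rod markers summed to 80897 to 82781 CPM in untreated, 51928 to 63644 CPM in control and 41891 to 45886 CPM in RVO samples, so rod RNA was abundant in every sample. In bulk samples, fewer cells of a type and less RNA per cell cannot be told apart.

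Both lasered groups had higher levels of most of the 9 genes than untreated eyes. In RVO against untreated eyes, 8 of 9 were called higher, where 27.4% of the 16380 genes tested were called higher and 24.6% lower. In control against untreated eyes, 7 of 8 tested were called higher, where 27.2% of 16066 genes were called higher and 25.2% lower. Ripk3 and Mlkl passed the filter on low counts only through lasered samples and so had to differ from untreated eyes, and of the 7 other members 6 were called higher in each of these 2 comparisons. In RVO against control eyes only Bbc3 passed, where 2.70% of 16874 genes were called higher and 0.634% lower. At an adjusted p under 0.05, 7 of the 9 were higher in RVO than in control eyes, where 17.5% of all genes were higher and 17.1% lower. None of the 9 was called lower in any comparison by edgeR or DESeq2, and in these edgeR fits 0 were lower at an unadjusted p under 0.05. Once trends of GC content and length were removed, Bax was lower in control than in untreated eyes (-0.25, adjusted p = 0.0153), which is not a call. The median log2 fold change over the tested members was 2.28 in RVO against untreated eyes (2.19 with Ripk3 at its lower bound, and 2.19 over the 7 others), 1.32 in control against untreated eyes (0.89 over the 7 others) and 0.93 in RVO against control eyes, where the medians of all genes tested were 0.01, 0.01 and 0.02.

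**Figure D1:**
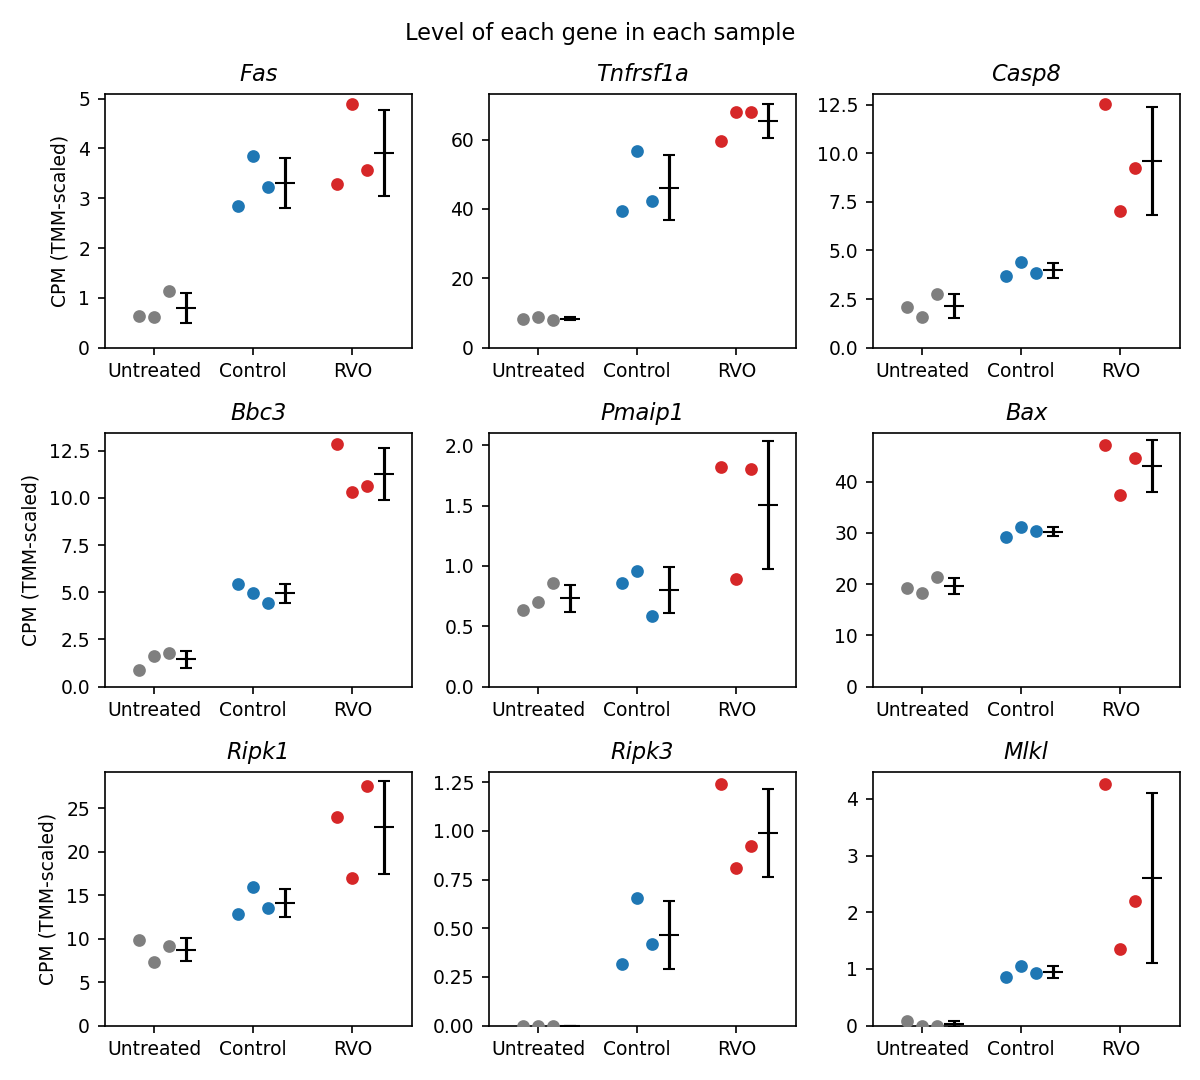
Level of each of the 9 genes in each sample, in CPM on linear axes from 0, with untreated samples in grey, control laser-treated samples in blue and RVO samples in red, and the mean ± SD of 3 samples in black beside them. Every RVO sample lies above every untreated sample for each gene, while RVO and control samples overlap for Fas and Pmaip1.

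Fas, the receptor of Fas ligand, was several-fold higher after laser of either kind and did not separate RVO from control eyes. Its levels were 0.64, 0.63 and 1.14 CPM in untreated, 2.85, 3.84 and 3.22 CPM in control and 3.28, 4.88 and 3.56 CPM in RVO samples. Each lasered sample was above each untreated sample, and the RVO and control samples overlapped. The log2 fold change was 2.28 ± 0.31 (SE) in RVO against untreated eyes (adjusted p = 0.000333) and 2.02 ± 0.27 in control against untreated eyes (adjusted p = 3.43e-05). Between RVO and control eyes it was 0.24 with a 95% interval from -0.25 to 0.73 (adjusted p = 0.395), so a difference of up to 1.66-fold lies within the interval.

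Tnfrsf1a encodes TNF receptor 1, through which TNF signals either survival or death, and it had the most counts of the 9 genes in lasered eyes. Its levels were 8.17, 8.83 and 8.07 CPM in untreated, 39.4, 56.8 and 42.2 CPM in control and 59.6, 68.1 and 68.1 CPM in RVO samples. The 3 groups did not overlap, which 73.4% of all genes also showed between RVO and untreated, 70.0% between control and untreated and 52.5% between RVO and control samples. Against untreated eyes the level was 7.97-fold higher in RVO eyes (log2 fold change 3.00 ± 0.10, adjusted p = 1.28e-06) and 5.59-fold higher in control eyes (2.48 ± 0.14, adjusted p = 6.79e-08). RVO against control eyes gave 0.50 ± 0.14 with an adjusted p of 0.0299, which is not a call at 0.01.

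Casp8, the protease that the death receptor complex activates and that also cleaves RIPK1 and RIPK3, rose in both lasered groups. Its levels were 2.09, 1.56 and 2.79 CPM in untreated, 3.66, 4.40 and 3.85 CPM in control and 12.5, 7.05 and 9.23 CPM in RVO samples. RVO sample 1 was the highest and RVO sample 2 the lowest of its group, yet all 3 lay above every control sample. The log2 fold change was 2.19 ± 0.29 in RVO (adjusted p = 0.000319) and 0.89 ± 0.22 in control eyes (adjusted p = 0.00296), each against untreated eyes. The second of these calls was lost without control sample 2 (adjusted p = 0.0103), untreated sample 1 (0.0126) or untreated sample 2 (0.0219), and in a fit of all 9 samples (0.0204). RVO against control eyes gave 1.28 ± 0.23 with an adjusted p of 0.0116.

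Bbc3 encodes PUMA, a BH3-only protein and textbook p53 target that frees BAX and BAK from BCL2-type proteins, and it was the 1 gene of the 9 called between RVO and control eyes. Its levels were 0.91, 1.64 and 1.79 CPM in untreated, 5.43, 4.95 and 4.44 CPM in control and 12.9, 10.3 and 10.6 CPM in RVO samples. The groups formed 3 steps with no overlap. On the log2 scale the fold change was 2.97 ± 0.24 in RVO against untreated (adjusted p = 3.35e-05), 1.76 ± 0.22 in control against untreated (adjusted p = 2.00e-05) and 1.20 ± 0.15 in RVO against control eyes (adjusted p = 0.00758). The last call rested on all samples together: Bbc3 was called without RVO sample 2, but not without RVO sample 1 or 3 or any 1 control sample (adjusted p = 0.0159 to 0.0538), where no more than 29 genes in all passed, against 6257 without RVO sample 2. Lasered eyes of both groups came from the same mice, and with the replicate number as a block Bbc3 was not called (adjusted p = 0.0314), although the labels do not say whether equal numbers mark the same mice.

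Pmaip1 encodes NOXA, a BH3-only protein that neutralizes MCL1, and it did not follow Bbc3. Its levels were 0.64, 0.70 and 0.86 CPM in untreated, 0.86, 0.96 and 0.59 CPM in control and 1.82, 0.89 and 1.80 CPM in RVO samples. RVO sample 2 lay within the range of the control samples, while RVO samples 1 and 3 were higher than all other samples. For the comparisons, the log2 fold change was 1.06 ± 0.36 in RVO against untreated eyes (adjusted p = 0.0305), 0.12 ± 0.33 in control against untreated eyes (adjusted p = 0.779; 95% interval -0.60 to 0.84) and 0.93 ± 0.35 in RVO against control eyes (adjusted p = 0.0725). Without RVO sample 2 it was called against untreated eyes (adjusted p = 0.00119) and against control eyes (adjusted p = 0.00526).

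Bax, the pore former of the mitochondrial outer membrane, was abundant in untreated retina and higher after laser. Its levels were 19.3, 18.2 and 21.4 CPM in untreated, 29.3, 31.1 and 30.4 CPM in control and 47.2, 37.4 and 44.5 CPM in RVO samples. The groups did not overlap. Against untreated eyes it rose by 1.16 ± 0.12 on the log2 scale in RVO (adjusted p = 8.55e-05) and by 0.64 ± 0.09 in control eyes (adjusted p = 3.20e-05), while RVO against control gave 0.51 ± 0.10 (adjusted p = 0.0130). The longest Bax transcript is rich in G and C (63.5%, against a median of 49.7% over the genes that passed the filter). With the trends of the samples on GC content and gene length removed, its value was 0.29 in RVO against untreated eyes (adjusted p = 0.102) and -0.25 in control against untreated eyes (adjusted p = 0.0153), so neither rise was called and the latter changed direction. Of the exonic bases of Bax, 192 also belong to a gene on the same strand, Gm45808, so its counts are uncertain to that extent.

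**Figure D2:**
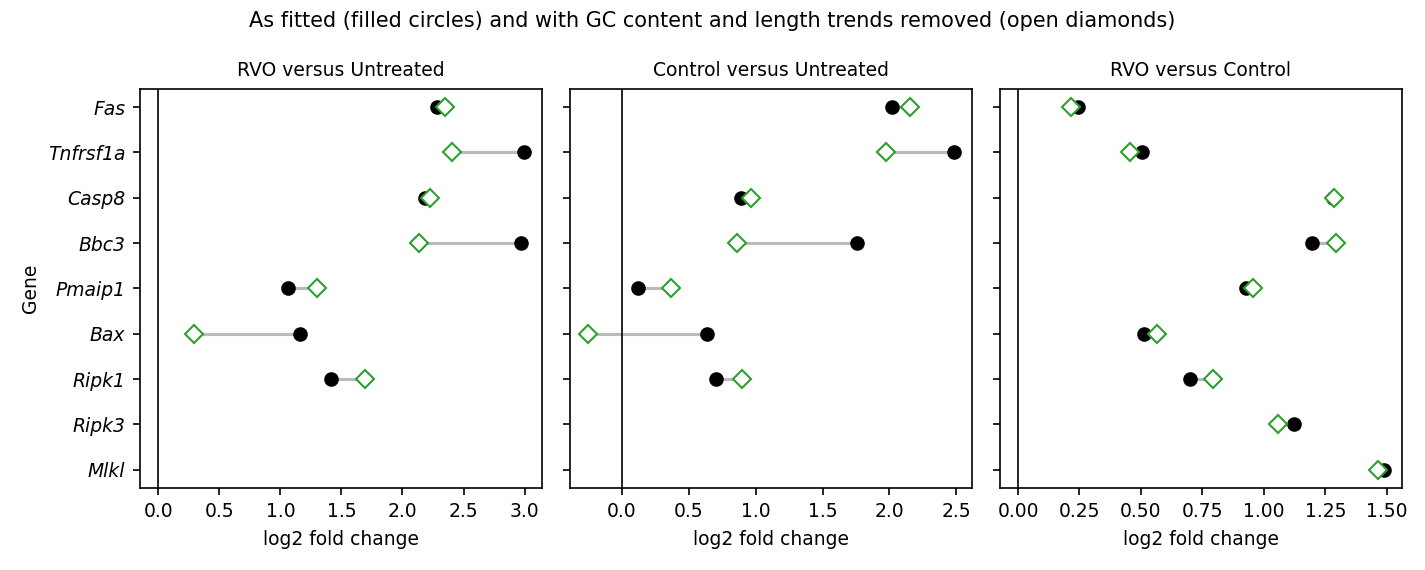
Log2 fold changes of the 9 genes as fitted (filled circles) and with trends of GC content and length removed (open diamonds), in a panel for each comparison, where values of Ripk3 and Mlkl against untreated eyes are left out because counts there were 0 or 1. The shift is largest for Bax and Bbc3 against untreated eyes, and small for every gene between RVO and control eyes.

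Bbc3 is similarly rich in G and C (65.2%), and without those trends its log2 fold change against untreated eyes was 2.14 in RVO and 0.86 in control eyes, with both calls kept (adjusted p = 0.000154 and 0.00569). That of Tnfrsf1a became 2.41 in RVO and 1.97 in control eyes, and both calls were kept (adjusted p = 2.47e-06 and 1.09e-06). Between RVO and control eyes the 9 values moved little, and Casp8 passed with an adjusted p of 0.00965.

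Ripk1, the kinase that stands between survival, apoptosis and necroptosis below TNF receptor 1, rose in both lasered groups. Its levels were 9.81, 7.34 and 9.14 CPM in untreated, 12.8, 15.9 and 13.5 CPM in control and 24.0, 16.9 and 27.5 CPM in RVO samples. RVO sample 2 was the lowest of its group and only just above the highest control sample. Relative to untreated eyes it rose by 1.41 ± 0.20 on the log2 scale in RVO (adjusted p = 0.000464) and by 0.70 ± 0.13 in control eyes (adjusted p = 0.000453), and RVO against control gave 0.70 ± 0.18 (adjusted p = 0.0255). The rise in control eyes missed the threshold in a fit of all 9 samples (adjusted p = 0.0111). Its exons share 511 bases with a processed pseudogene on the same strand (Gm17084) and 241 with Serpinb6a on the opposite strand, so some of its counts are uncertain.

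Ripk3, the kinase that phosphorylates MLKL, was not detected in untreated eyes. Its counts were 0, 0 and 0 in untreated, 7, 13 and 10 in control and 39, 19 and 21 in RVO samples, which correspond to 0.32, 0.66 and 0.42 CPM in control and 1.24, 0.81 and 0.92 CPM in RVO samples. Every lasered sample had counts and every RVO sample was above every control sample. Against a floor of 3 counts per untreated sample, RVO eyes were at least 4.12-fold higher and control eyes at least 1.93-fold higher. In control against untreated eyes Ripk3 did not reach the filter on low counts and was not tested, and in RVO against untreated eyes it reached the filter only through the RVO samples, so its test there is not given. RVO against control eyes gave a log2 fold change of 1.12 ± 0.33 (adjusted p = 0.0361).

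Mlkl, the executioner of necroptosis, was nearly absent from untreated eyes. Its counts were 1, 0 and 0 in untreated, 19, 21 and 22 in control and 134, 32 and 50 in RVO samples, or 0.86, 1.06 and 0.92 CPM in control and 4.27, 1.36 and 2.20 CPM in RVO samples. RVO sample 1 was the highest by far, and the RVO samples spread more than the control samples. From the summed counts, the ratio to untreated eyes was 105 in RVO (95% counting interval 18.7 to 4172) and 35.6 in control eyes (6.16 to 1430), and these intervals cover counting error only. Without RVO sample 1, the ratio in RVO eyes was 67.0 (11.7 to 2678). Mlkl likewise passed the filter only through the lasered samples, and its tests against untreated eyes are not given. RVO against control eyes gave a log2 fold change of 1.49 ± 0.43 (adjusted p = 0.0340), which became 0.90 (adjusted p = 0.0686) without RVO sample 1.

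**Figure D3:**
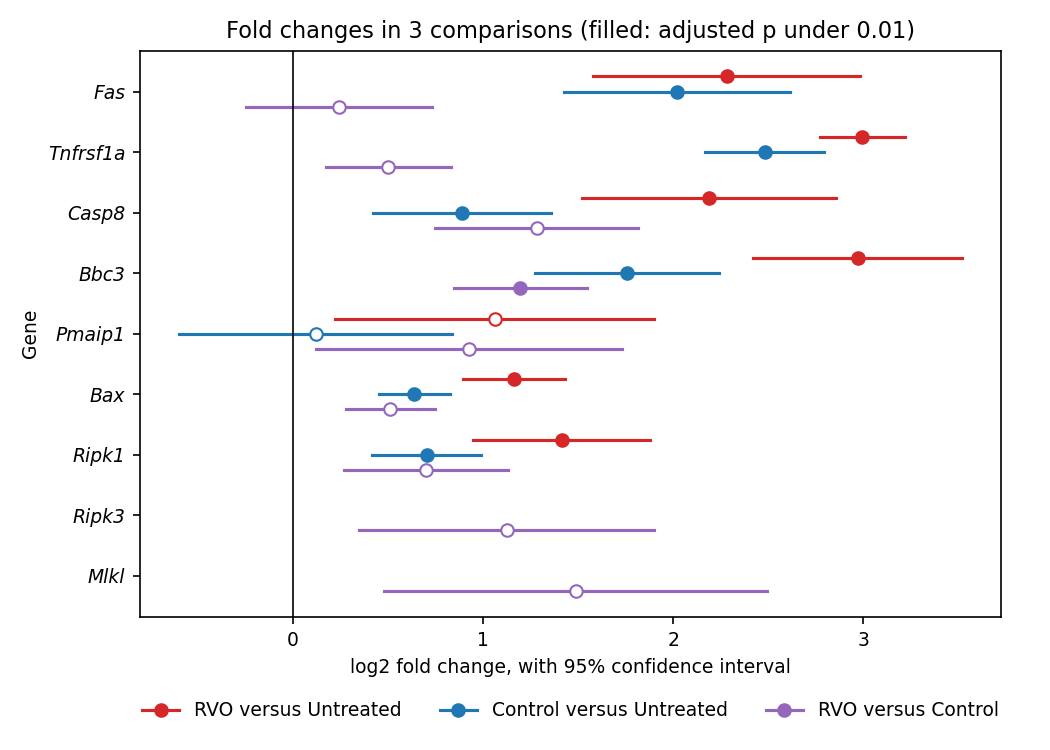
Log2 fold changes with 95% confidence intervals for the 9 genes in RVO against untreated (red), control against untreated (blue) and RVO against control eyes (purple), where filled points mark an adjusted p under 0.01 and values of Ripk3 and Mlkl against untreated eyes are left out because counts there were 0 or 1. Every value lies above 0, and the intervals that include 0 are those of Fas between RVO and control eyes (-0.25 to 0.73) and of Pmaip1 between control and untreated eyes (-0.60 to 0.84).

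Summed markers of neutrophils, and of monocytes and macrophages, were higher in both lasered groups than in untreated eyes and highest in RVO eyes. The 8 neutrophil markers summed to 0.08 to 0.57 CPM in untreated, 5.44 to 18.4 CPM in control and 34.5 to 85.4 CPM in RVO samples, and Ly6g, Retnlg, Mmp8 and Cxcr2 were at 0 counts in untreated eyes. Of the 8, S100a8 and S100a9 had the highest RVO means (25.7 and 30.6 CPM), and Ly6g, Retnlg, Camp and Ngp reached the filter in no comparison. Ly6g had only 6 counts in sum in RVO samples, with 0 to 5 per sample. Camp overlapped between the groups, at 0.12, 0.09 and 0.17 CPM in untreated, control and RVO eyes. The 10 markers of monocytes and macrophages summed to 18.0 to 22.6, 57.3 to 80.2 and 127 to 154 CPM in the same order, with Ly6c2 at 0 counts in untreated eyes. In RVO against untreated eyes 8 of the 10 were called higher, where 27.4% of all genes tested were. Among the 8, Ly6c2 and Ccr2 had at most 1 count in every untreated sample and passed the filter only through the RVO samples. In the opposite direction, the 7 microglia markers summed to 103 to 159 CPM in untreated, 50.9 to 60.8 CPM in control and 31.5 to 52.6 CPM in RVO samples. The 7 markers of T and NK cells stayed at or below 1.16 CPM in every sample. The 5 ganglion cell markers summed to 864 to 908 CPM in untreated, 704 to 744 CPM in control and 194 to 455 CPM in RVO samples. RVO sample 2 had the lowest values of Casp8, Bbc3, Pmaip1, Bax, Ripk1, Ripk3 and Mlkl in its group, while its Fas level was the highest. Its Tnfrsf1a level was 68.1 CPM, as in RVO sample 3. Its sums of neutrophil markers and of monocyte and macrophage markers were the lowest of the group. The sums of lens, ganglion cell, Mueller cell, endothelial, microglia, rod and pigment epithelium markers were the highest there. This is 1 sample, and its values differ in many ways at once. The part of these cells in the levels of the 9 genes was not tested.

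Per kilobase of exon, the 9 genes covered a wide range of levels, and their order changed with laser. Bax was the most abundant in untreated eyes, with 12.5 ± 1.04 CPM per kb (SD, n = 3), followed by Tnfrsf1a with 3.23 ± 0.16 and Ripk1 with 1.05 ± 0.15. Casp8 with 0.74 ± 0.21, Bbc3 with 0.68 ± 0.22, Fas with 0.39 ± 0.14 and Pmaip1 with 0.27 ± 0.04 CPM per kb followed, each overlapping its neighbour in that order, as did Ripk1 and Casp8. Mlkl with 0.01 ± 0.02 CPM per kb and Ripk3 with 0 counts were at the bottom. In RVO eyes Tnfrsf1a had reached 25.2 ± 1.90 CPM per kb, overlapping Bax with 27.3 ± 3.21, and Bbc3 stood at the third position with 5.31 ± 0.65 and did not overlap Casp8 with 3.32 ± 0.95. Ripk1 with 2.74 ± 0.65, Fas with 1.90 ± 0.41, Mlkl with 1.13 ± 0.65, Pmaip1 with 0.55 ± 0.19 and Ripk3 with 0.43 ± 0.10 CPM per kb followed, each overlapping the next. In control eyes Bax with 19.2 ± 0.60 and Tnfrsf1a with 17.8 ± 3.60 CPM per kb overlapped as well, and Ripk3 was the lowest with 0.20 ± 0.08. These levels keep the sample trends of GC content and length. With those trends removed, the log2 fold changes in RVO against untreated eyes were 2.14 for Bbc3 and 2.23 for Casp8. The place of Bbc3 above Casp8 in RVO eyes is uncertain to that extent.

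**Figure D4:**
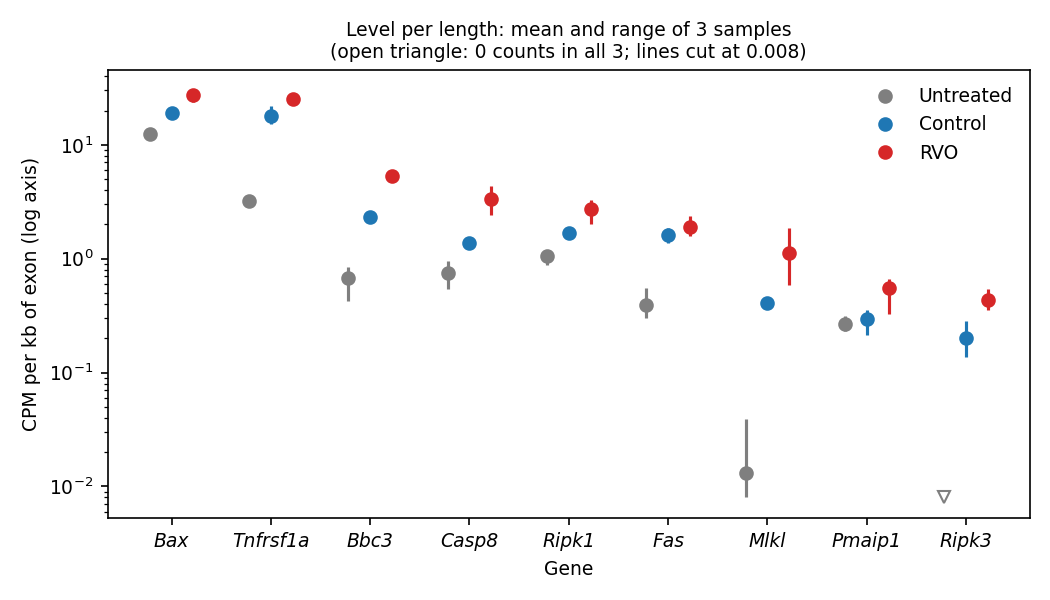
Level per kilobase of exon in CPM per kb on a logarithmic axis, with the mean (point) and the range (line) of 3 samples for untreated (grey), control (blue) and RVO (red) eyes, ordered by the RVO mean. An open triangle marks Ripk3 in untreated eyes, which had 0 counts, and Tnfrsf1a reaches the level of Bax in lasered eyes.

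The genes with the most similar pattern over the 9 samples differed between members. The likeness is the root-mean-square difference of centred log2 CPM over the 17112 genes that passed the filter, and smaller values mean a closer pattern. Bax was followed most closely by Rack1 (0.03) and Ssr4 (0.05), a ribosomal scaffold and a subunit of the signal sequence receptor. Tnfrsf1a was closest to Aldh1l1 (0.10), a folate enzyme used as a marker of astroglia, and Bmp1 (0.14), and Casp8 to Mlf1 (0.14) and Itgam (0.15), the integrin chain CD11b of myeloid cells. Bbc3 was closest to E2f1 (0.14), a cell cycle factor, and Galk1 (0.17), Fas to Nxf2 and Tsc22d4, Pmaip1 to Polr3d and Ddx21, Ripk1 to Gm8292 and Txn1, Ripk3 to Tspo (0.14) and Rfx2 (0.16), and Mlkl to Cyp4f18 (0.31) and Trim30d (0.33). The 9 samples share groups and libraries, so these are descriptions of pattern only. For Ripk3 and Mlkl, with 0 or 1 count in untreated samples, the untreated values rest mostly on the 0.1 CPM added before the log. Their closest genes therefore depend on that addition.

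Of 67 further genes of the pathways, 34 of the 62 tested were called higher and 7 lower in the comparison of RVO with untreated eyes, against 27.4% and 24.6% of all genes. Tnf, Bik, Zbp1, Casp4, Gsdmd and Eda2r, which are 6 of the 34, passed the filter only through the RVO samples, so their calls are conditional on a high level there. In control against untreated eyes 27 of 60 tested were higher and 9 lower, against 27.2% and 25.2% of all genes. Bik, Zbp1, Casp1, Gsdmd and Eda2r passed the filter there only through the control samples. Of these, 4 are among the 27, so their calls are conditional on a high level in control eyes. In RVO against control eyes 6 of 63 tested were called higher at 0.01 and 0 lower, against 2.70% and 0.634% of all genes. The 6 were Tnfsf10, Tnfrsf1b, Bcl2l11, Ticam1, Cdkn1a and Gadd45a. At an unadjusted p under 0.05 there were 37 higher and 6 lower (24.1% and 22.9% of all genes), and the DESeq2 test called 20 and 4 (11.2% and 13.2% of all genes). Without RVO sample 2, 30 were higher and 5 lower, where 6257 genes in all were called, and without any other 1 sample of these groups 0 passed. The fold changes below are log2 values in RVO against untreated eyes unless stated. The counts called in each list below are to be read against the 27.4% higher and 24.6% lower of all genes in that comparison.

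Among death ligands and other death receptors, 4 of 6 tested were called higher in RVO against untreated eyes, with a median of 2.04. Among the 4, Tnf passed the filter only through the RVO samples, so its call is conditional on a high level there. Tnfrsf1b, the second TNF receptor, was at 24.2 ± 7.1 CPM (SD, n = 3) in RVO, 7.47 ± 1.3 in control and 2.44 ± 0.31 in untreated eyes (3.34 ± 0.27, adjusted p = 3.30e-05), and it also rose between control and RVO eyes (1.70 ± 0.25, adjusted p = 0.00928). Tnfsf10, which encodes the ligand TRAIL, was at 3.93 ± 0.44, 1.78 ± 0.15 and 0.74 ± 0.04 CPM (2.43 ± 0.23, adjusted p = 6.08e-05), and its receptor Tnfrsf10b at 5.72 ± 1.7, 2.44 ± 0.56 and 1.87 ± 0.49 CPM (1.65 ± 0.29, adjusted p = 0.00136). Tnf had 68 counts in RVO, 20 in control and 3 in untreated samples in sum, a ratio of 11 in RVO against untreated eyes (95% counting interval 3.62 to 54.8; adjusted p = 0.00612). The call of Tnf was lost without untreated sample 2 (adjusted p = 0.0286) or 3 (0.0307) and without GC content and length trends (0.0154). Fasl, the ligand of Fas, and Lta did not reach the filter, with 10 and 15 counts over the 3 RVO samples.

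Of the adaptors and brakes of the receptor complex, 6 of 13 were higher and 2 lower in RVO against untreated eyes, with a median of 0.40. Among all genes tested, 27.4% were called higher and 24.6% lower. Birc3, a ubiquitin ligase that restrains RIPK1, rose by 2.33 ± 0.34 (adjusted p = 0.000512), the adaptor Tradd by 1.40 ± 0.17 (adjusted p = 0.000202) and Rnf31, of the linear ubiquitin ligase, by 1.26 ± 0.11 (adjusted p = 4.23e-05; 123 of its bases are shared with Irf9). Without GC content and length trends the value of Tradd was 0.70 and its call was kept (adjusted p = 0.00575). Fadd, the adaptor between receptors and Casp8, rose by 0.65 ± 0.14 (adjusted p = 0.00407), a call lost without RVO sample 1 or 3 or untreated sample 1 or 2 (up to 0.0235) and without GC content and length trends (0.0408). Tnfaip3, which encodes the brake A20, was instead at 136 ± 7.5 CPM in RVO, 196 ± 44 in control and 383 ± 10 in untreated eyes and fell by 1.47 on the log2 scale (adjusted p = 3.19e-06). Cflar, the decoy that restrains Casp8, was at 68.7 ± 11, 43.9 ± 0.96 and 51.0 ± 5.5 CPM, with no call in RVO against untreated (0.46 ± 0.13, adjusted p = 0.0145), control against untreated (-0.20 ± 0.08, adjusted p = 0.0411) or RVO against control eyes (0.65 ± 0.11, adjusted p = 0.0115). Without GC content and length trends Cflar was called higher in RVO than in untreated (0.91, adjusted p = 0.00131) and control eyes (0.82, adjusted p = 0.00943).

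Of the other BH3-only genes, 5 of 6 were called higher in RVO against untreated eyes, with a median of 1.26. Among the 5, Bik passed the filter only through the RVO samples, so its call is conditional on a high level there. Bik was at 1.68 ± 0.26 CPM in RVO and 0.24 ± 0.07 CPM in untreated eyes (2.81 ± 0.34, adjusted p = 0.000192). Bid, which caspase-8 cleaves to link the receptor to mitochondria, rose by 1.70 ± 0.25 (adjusted p = 0.000519), Bmf by 1.27 ± 0.17 (adjusted p = 0.000337) and Bad by 1.26 ± 0.11 (adjusted p = 4.61e-05). Without GC content and length trends Bik was at 2.04 and Bad at 0.62 on the log2 scale, and both calls were kept (adjusted p = 0.00142 and 0.00127). Bid, Bad, Fadd, Bak1 and Bcl2 share exonic bases with a gene on the opposite strand, and whether counting used the strand is not given in the sources used here.

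Survival proteins and pore formers gave 3 higher and 1 lower of 6 tested in RVO against untreated eyes, with a median of 0.71. The survival genes Bcl2l1 (70.0 ± 5.1 CPM in untreated and 139 ± 17 CPM in RVO eyes, 1.02 ± 0.11, adjusted p = 0.000103) and Mcl1 (97.2 ± 5.0 and 174 ± 18 CPM, 0.88 ± 0.09, adjusted p = 0.000113) rose. Bcl2, the founding survival gene, fell by 0.60 on the log2 scale (23.0 ± 3.5 to 14.8 ± 2.3 CPM, adjusted p = 0.00934), which did not pass without RVO sample 1 or 3, untreated sample 1 or 2 (up to 0.0423), or the GC content and length trends (0.0522), or with library size scaling only (0.0456). The pore former Bak1 rose by 0.76 ± 0.16 (adjusted p = 0.00345), but by 0.11 and without a call (adjusted p = 0.573) once trends of GC content and length were removed, and its call was also lost without RVO sample 3 or any 1 untreated sample (up to 0.0189). Bok gave 0.66 ± 0.24 in RVO (adjusted p = 0.0349) and rose by 1.25 ± 0.17 in control eyes (adjusted p = 2.86e-05), the latter lost without GC content and length trends (adjusted p = 0.0242). Bcl2a1a, Bcl2a1b and Bcl2a1d are near-identical copies whose counts cannot be separated with certainty.

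Of the 10 genes of the apoptosome, caspases and caspase inhibitor list, 2 were higher, 2 lower and 6 not called in RVO against untreated eyes, with a median of 0.14. These counts are near the shares of all genes, 27.4% higher and 24.6% lower. Xiap, an inhibitor of caspases, was at 192 ± 39 CPM in RVO, 340 ± 33 in control and 724 ± 56 in untreated eyes and fell by 1.88 on the log2 scale (adjusted p = 2.54e-05). Without GC content and length trends the value of Xiap was -0.89, and its call was kept (adjusted p = 2.60e-05). Apaf1, the scaffold of the apoptosome, rose by 0.73 ± 0.10 (adjusted p = 0.000410) and Htra2 by 1.14 ± 0.12 (adjusted p = 9.82e-05), although 1288 bases of Htra2 overlap genes on the opposite strand and its call was lost without the GC content and length trends (adjusted p = 0.0121).

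Other inputs to necroptosis gave 3 of 5 higher in RVO against untreated eyes, with a median of 2.06. Among the 3, Zbp1 passed the filter only through the RVO samples, so its call is conditional on a high level there. Zbp1, the nucleic acid sensor that binds RIPK3, was at 5.01 ± 2.4 CPM in RVO, 2.68 ± 0.95 in control and 0.25 ± 0.22 in untreated eyes (4.26 ± 0.60, adjusted p = 0.000437), which became 5.28 (adjusted p = 0.00178) without untreated sample 3, with no call between RVO and control eyes (0.92 ± 0.41, adjusted p = 0.119). Ticam1, which encodes the adaptor TRIF, was at 19.3 ± 3.0, 10.1 ± 1.2 and 3.84 ± 0.76 CPM (2.35 ± 0.19, adjusted p = 3.21e-05) and rose between control and RVO eyes (0.94 ± 0.15, adjusted p = 0.00995). The receptor Tlr4 rose by 2.06 ± 0.28 (adjusted p = 0.000340). Of the 4 pyroptosis genes 2 were called higher. Casp4 had 83 counts in RVO and 2 in untreated samples in sum, a ratio of 20.2 (95% counting interval 5.42 to 170), with an adjusted p of 0.00114. The pore former Gsdmd gave 2.42 ± 0.26 (adjusted p = 0.000127). Both passed the filter only through the RVO samples, so these 2 calls are conditional on a high level there.

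The p53 pathway, which includes the textbook regulators of Bbc3, had 9 of 12 genes higher and 2 lower in RVO against untreated eyes, with a median of 1.15. Among the 9, Eda2r passed the filter only through the RVO samples, so its call is conditional on a high level there. Cdkn1a, the cell cycle inhibitor p21, was at 70.3 ± 32 CPM in RVO, 15.5 ± 3.1 in control and 4.59 ± 0.96 in untreated eyes (3.96 ± 0.37, adjusted p = 6.06e-05; between RVO and control eyes 2.18 ± 0.34, adjusted p = 0.00977). Eda2r, a receptor of the TNF receptor family, had 309 counts in RVO, 76 in control and 2 in untreated samples in sum, a ratio of 75.2 between RVO and untreated eyes (95% counting interval 20.6 to 624), with an adjusted p of 0.000121. Phlda3 rose by 3.30 ± 0.22 (adjusted p = 1.68e-05), or by 2.45 (adjusted p = 0.000127) without GC content and length trends, and Trp53, which encodes p53 itself, was at 43.3 ± 10, 21.5 ± 0.75 and 13.7 ± 1.6 CPM (1.69 ± 0.19, adjusted p = 0.000138). The genes that fell were Ccng1 and Trp53inp1.

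**Figure D5:**
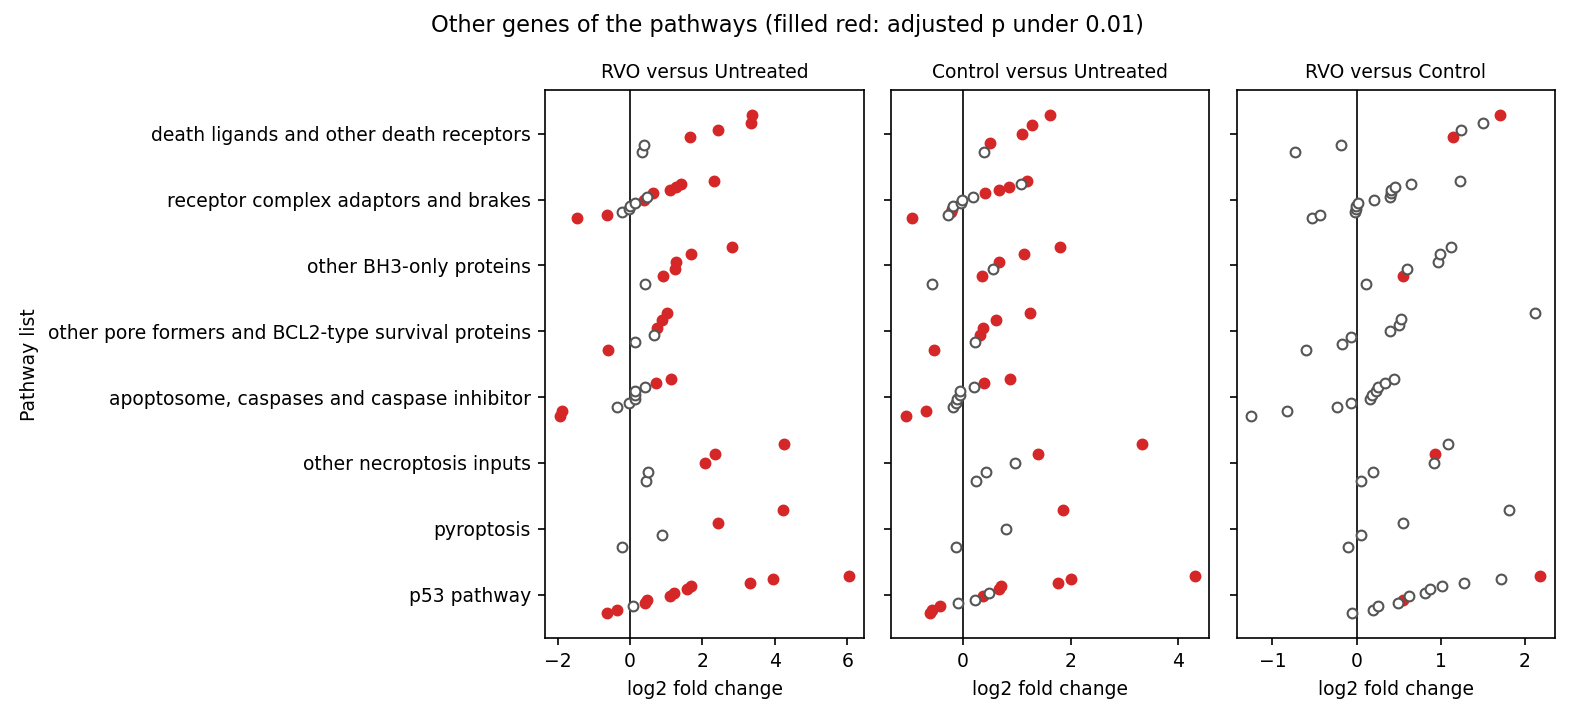
Log2 fold changes of the tested genes of 8 pathway lists, 1 row per list and 1 panel per comparison, with red points for an adjusted p under 0.01 and open points for the others. Genes of the ligand, BH3-only, necroptosis and p53 lists lie mostly to the right of 0 against untreated eyes, while those of the caspase list lie on both sides.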

How the data were processed

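RNA was measured in 9 pools of mouse retinas, 3 each of RVO, control laser-treated and untreated eyes, grouped by their labels. The authors made stranded poly-A libraries, aligned single reads with STAR 2.5.2b to GRCm38 using Gencode vM11 gene models, counted reads per gene with featureCounts (Subread 1.5.1) and deposited raw counts without normalization. Whether counting used the strand, and how reads matching several genes were handled, is not given in the sources used here. Coordinates, lengths and GC content came from Gencode vM21, on the same build.

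Each pair of groups was fitted over all genes in R 4.3.3 with edgeR 4.0.16 (filterByExpr, TMM scaling, quasi-likelihood test, Benjamini-Hochberg adjustment), and genes were called at an adjusted p under 0.01, the threshold of the study. The SE is the log2 fold change divided by the square root of F. DESeq2 1.42.0 was an alternative, as were other scalings and filters, a fit of all 9 samples, a replicate block, and leaving out each sample. The removal of trends of GC content and length was added after the data were seen. The pools were separate samples of 6 mice, and pools of a group differed by more than sampling noise. Lasered eyes of both groups came from the same mice.

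The 9 genes and the lists were chosen with earlier results of these data known. All 9 were described in full; from each pathway list up to 4 called genes with the largest absolute log2 fold change and 8 direct partners (such as Fadd and Cflar) were described, except for items not reported here, and the 2 genes closest in pattern to each member (log2 of CPM + 0.1, centred). Genes named beyond this rule were chosen after their values were seen.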

Additional observations from a re-analysis of the deposited data

Results flagged for a closer look

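Cflar, the decoy of Casp8, lay on opposite sides of untreated eyes in the lasered groups: each RVO sample was above the untreated mean and each control sample below it. The log2 fold change of RVO against control eyes was 0.65 with an adjusted p of 0.0115 in the edgeR test, which misses 0.01, and with GC content and length trends removed the control value against untreated eyes turned to 0.10 (adjusted p = 0.273), while RVO against control eyes gave 0.82 (adjusted p = 0.00943) and RVO against untreated eyes 0.91 (adjusted p = 0.00131), both calls. Summed markers of neutrophils, and of monocytes and macrophages, were higher in both lasered groups than in untreated eyes. The part of these cells in the Cflar levels was not tested.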

How the results depend on the processing

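In RVO against untreated eyes the count of called members stayed between 7 and 9 under the alternatives, and in control against untreated eyes between 6 and 8. RVO against control eyes depended on the setting. Members higher (1 as reported) numbered 7 at an adjusted p under 0.05, 4 without a filter, 5 by DESeq2, 5 in the fit of all 9 samples and 2 without GC content and length trends. Pathway genes higher (6) and lower (0) numbered 32 and 5 at 0.05, 2 and 0 with RLE size factors, 10 and 1 with library size only, 19 and 3 without a filter, 20 and 4 by DESeq2, 21 and 3 in the fit of all 9 samples and 11 and 2 without GC content and length trends. Of all genes, 2.70% were called higher and 0.634% lower as reported, 17.5% and 17.1% at 0.05, and 11.2% and 13.2% by DESeq2. The shares of all genes under the other settings are not given here, so those counts cannot be set against them. Leaving out 1 sample gave 0 to 6 members higher, 0 to 30 pathway genes higher and 0 to 5 lower, while 0 to 6257 genes in all were called. At an unadjusted p under 0.05 there were 7 to 8 members higher in each case. With all samples kept, 24.1% of all genes were higher and 22.9% lower at that threshold. The high counts at an adjusted p under 0.01 came without RVO replicate 2. The cause was not tested. The replicate block in RVO against control eyes left 0 members and 0 pathway genes higher, against 7 and 35 at an unadjusted p under 0.05, and 0 genes in all were called. The share of all genes at that unadjusted threshold with the block is not given here. Same-numbered RVO and control samples correlated at -0.167, -0.168 and 0.0925 in their deviations, and the labels do not say whether equal numbers mark the same mice, so a pairing by number was not established. Without GC content and length trends 4 pathway genes were lower in RVO than untreated eyes (7 as reported), Bok reversed there (-0.15), and in control against untreated eyes Bax (-0.25), Fadd (-0.020), Cflar (0.10) and Bak1 (-0.36) reversed. Bcl2 between RVO and control eyes reversed without those trends (0.021) and without RVO replicate 1 (-0.21 to 0.021 over the samples left out), and Pmaip1 in control against untreated eyes reversed without control replicate 2 (-0.026 to 0.31). Depth limits Ripk3 and Mlkl in untreated eyes, where at most 1 count was found.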
